A study of Homo sapiens with 8 samples.

Results

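The genes described here are LRP1 and 8 genes related to it in kind or in function: the LDL receptor family members VLDLR, LRP5, LRP6, LRP8 and LRP10, the sorting receptors SORL1 and SORT1, and LRPAP1, the chaperone of the family. They were found by symbol and make up 9 of the 27475 human genes in the deposited expression tables. LRP1 was picked because it takes up PAI-1 complexes and because its TPM was higher with siPAI-1 in both cell lines, so the set was chosen by the siPAI-1 values of LRP1, and the siPAI-1 differences of the 9 genes are given as a description, with no test. That reason does not name the levels in one line against the other, and these were tested. The genes were still chosen with earlier results of these data known, and the line tests use the same libraries. A line difference between siPAI-1 libraries also contains the siPAI-1 differences of a gene, which were not tested.

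RNA sequencing was carried out on 8 libraries from the human bladder cancer lines UM-UC-3 and RT112, to compare cells with and without PAI-1, a plasminogen activator inhibitor. Cells of each line received either siPAI-1, a pool of 3 siRNAs against PAI-1, or Scr, a pool of 3 scrambled negative control siRNAs, each at 100 pmol with the transfection reagent INTERFERin for 72 h, and each of the 4 groups had 2 libraries. All libraries thus came from transfected cells, and the media were RPMI or DMEM without a record of which line grew in which, so that cell line and culture medium cannot be told apart. The 2 libraries of a group are labelled by number only, so the p-values measure the spread between these libraries, which may be technical.

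LDL receptor family members are transmembrane receptors that bind ligands at the cell surface, carry them into endosomes and return for another round. LRP1 is the large scavenger among them and clears complexes of PAI-1 with urokinase (uPA) or tissue plasminogen activator (tPA). It takes up the complexes with uPA together with the uPA receptor. LRP5 and LRP6 are the Wnt co-receptors, and VLDLR and LRP8 are the receptors of reelin. SORL1 and SORT1 carry a VPS10 domain and move cargo between the Golgi and endosomes, and LRPAP1, also called RAP, binds young receptors in the endoplasmic reticulum and keeps them from meeting ligands too early.

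Levels are given in TPM, a unit scaled to transcript length and to a fixed total. An estimated 29.3 to 34.15 M reads lay behind each library. The summed level of 6 epithelial markers was 217.97 to 237.09 TPM in UM-UC-3, against 10769.24 to 12251.79 TPM in RT112, and that of 9 urothelial markers was 7.86 to 9.39 TPM and 1594.09 to 1764.33 TPM. UM-UC-3 thus had little of the urothelial transcripts, while UPK3A was at or near 0 in both lines. In RT112 Scr libraries UPK1A (0.36 and 0.54 TPM) and KRT20 (0.41 and 1.5 TPM) were low too. KRT5 (mean 831.23 TPM) and UPK1B (mean 610.145 TPM) made up most of the urothelial sum there. The epithelial sum of UM-UC-3 was mostly KRT18 (mean 182.26 TPM with Scr), while EPCAM and CDH1 had Scr means of 0.3 and 0.24 TPM. Markers of other cells summed to 274.95 to 284.69 TPM in UM-UC-3, nearly all of it CD68, and to 22.45 to 26.94 TPM in RT112. The part of these marker levels in the differences between the lines was not tested.

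LRP1 and SORL1 were the 2 genes of the 9 whose siPAI-1 libraries lay above the Scr libraries in both lines, and their promoter windows are shown for that reason. Each window holds 300 bases around the gene's start in RefSeq (GRCh38.p14), the capitals mark GC boxes (GGGCGG on either strand), and the windows lie at chr12:57128233-57128532 for LRP1 and chr11:121452064-121452363 for SORL1, both on the plus strand.
LRP1: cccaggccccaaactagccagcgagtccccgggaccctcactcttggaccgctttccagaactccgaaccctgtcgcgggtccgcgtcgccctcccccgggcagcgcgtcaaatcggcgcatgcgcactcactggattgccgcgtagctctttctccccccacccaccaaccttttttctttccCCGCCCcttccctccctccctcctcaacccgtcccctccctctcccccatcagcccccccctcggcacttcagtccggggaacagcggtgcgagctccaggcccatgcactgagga
SORL1: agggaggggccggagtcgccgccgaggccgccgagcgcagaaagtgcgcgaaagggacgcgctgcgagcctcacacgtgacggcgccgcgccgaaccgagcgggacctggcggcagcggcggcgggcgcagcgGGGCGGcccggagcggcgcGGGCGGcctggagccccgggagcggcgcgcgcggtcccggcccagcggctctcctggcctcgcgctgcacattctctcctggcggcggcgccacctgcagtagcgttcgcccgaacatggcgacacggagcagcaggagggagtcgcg
The LRP1 window held 1 GC box, on the minus strand, and 23 CpG, and the SORL1 window held 2 GC boxes and 52 CpG, against a median of 14 CpG over 27305 RefSeq windows of this length. RefSeq windows matched 8 of the 9 genes, all but LRP6, and all 8 held at least 1 GC box, a motif found in 44.59% of all windows. The windows of LRP5 and LRPAP1 lie within the gene positions given below and not at their outer starts. The TATA box letters TATAAA were in none of the 8 windows and in 11.95% of all windows, and the E-box letters CACGTG were in 1, that of SORL1, and in 7.43% of all windows. A match of letters is a description of the window and not a site of binding.

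LRP1 (12:57128483-57213361 in RefSeq GRCh38.p14, as are the other gene positions below) had a level of 21.39 and 22.84 TPM in UM-UC-3 after Scr, against 28.58 and 26.63 TPM after siPAI-1. RT112 cells held 27.37 and 27.02 TPM of it after Scr, against 33.24 and 35.98 TPM after siPAI-1. Each siPAI-1 library of a line was above both Scr libraries of that line, and the UM-UC-3 siPAI-1 libraries had about the level of the RT112 Scr libraries. The difference, siPAI-1 minus Scr on the log2(TPM + 0.1) scale, was 0.32 (SE 0.0893, n = 2) in UM-UC-3 and 0.35 (SE 0.0829, n = 2) in RT112, or 1.25-fold and 1.27-fold. These are the values that chose the gene. In bulk RNA, more cells with a transcript and more RNA per cell cannot be told apart.

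Between the Scr libraries, LRP1 was 1.23-fold higher in RT112 than in UM-UC-3 (log2 difference 0.30, 95% interval 0.10 to 0.49, adjusted p = 0.0198 by limma). With siPAI-1 in both lines it was 1.25-fold higher in RT112 (log2 difference 0.33, adjusted p = 0.0137). In 4 of 16 alternative settings the Scr call on LRP1 was lost, with adjusted p up to 0.0687. Those 4 were the fit without a trend in the variance (0.0526) and the fits without UM-UC-3 Scr replicate 1 (0.0687), without RT112 Scr replicate 1 (0.0665) and without RT112 Scr replicate 2 (0.0564).

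Among the 7145 genes averaging 10 TPM or more in each line, the genes most like LRP1 over the 8 libraries were MT-CO3, a mitochondrially encoded subunit of cytochrome c oxidase (Pearson r 0.935), NVL (r 0.924), ZDHHC16 (r 0.923), the kinase gene MAP2K4 (r 0.922) and CHST14, a dermatan sulfotransferase (r 0.921). After each line's mean was subtracted, TAF1, a subunit of the general transcription factor TFIID (r 0.971), CHST14 (r 0.967), NDUFC1 of mitochondrial complex I (r 0.966), the tRNA synthetase gene EPRS (r 0.958) and AHNAK (r 0.949) were highest. All of these r values run over the same 8 libraries and are descriptions. Once the line means were subtracted, the LRP1 values differed mostly by siPAI-1 against Scr, the contrast that chose the gene. The second set thus holds genes that were also higher with siPAI-1 in both lines. The genes of the first set, as measured, likewise had siPAI-1 libraries above the Scr libraries in both lines. Nothing more is read from either set. CHST14 was in both sets. SORL1 was in place 350 as measured (r 0.734) and in place 244 after the line means were subtracted (r 0.692). The other members that could be compared ran from r -0.546 (LRP6) to 0.673 (LRPAP1) as measured, and from -0.407 (LRP10) to 0.126 (LRP6) after subtraction. VLDLR was below the minimum level.

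**Figure D1:**
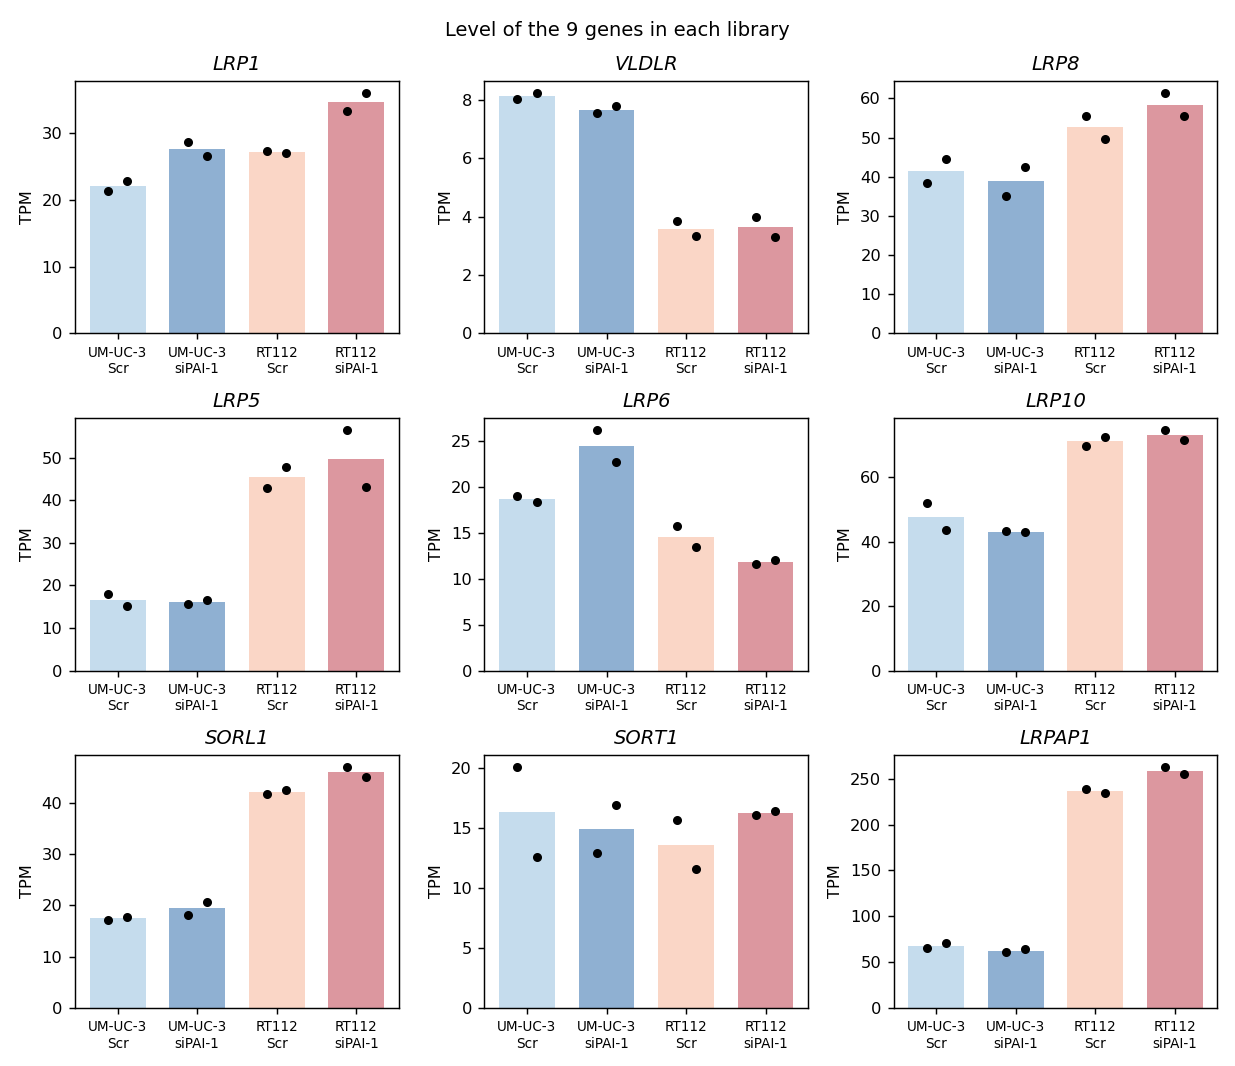
Level in TPM of each of the 9 genes (1 panel per gene, linear vertical axis) in the 4 groups of 2 libraries, with 1 point per library and a bar up to the group mean. LRP1 was at 21.39 to 22.84 TPM in UM-UC-3 Scr, against 33.24 to 35.98 TPM in RT112 siPAI-1 libraries, and the RT112 points of LRPAP1 lay between 234.13 and 262.65 TPM, far above the UM-UC-3 points at 61.07 to 71.2 TPM.

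The Wnt co-receptors LRP5 and LRP6 had differences of opposite sign between the lines. LRP5 (11:68298412-68449275) was at 17.89 and 15.19 TPM in UM-UC-3 Scr, 15.73 and 16.47 TPM in UM-UC-3 siPAI-1, 42.83 and 47.89 TPM in RT112 Scr, and 56.47 and 43.06 TPM in RT112 siPAI-1 libraries. It was 2.74-fold higher in RT112 Scr than in UM-UC-3 Scr libraries (log2 difference 1.45, 95% interval 1.10 to 1.81, adjusted p = 0.000228, limma) and 3.05-fold higher between the siPAI-1 libraries (adjusted p = 0.000138). With siPAI-1, the LRP5 groups overlapped within each line, at log2 differences of -0.03 (SE 0.12, n = 2) in UM-UC-3 and 0.12 (SE 0.153, n = 2) in RT112.

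LRP6 (12:12116025-12267044) was at 19 and 18.39 TPM in UM-UC-3 after Scr, against 26.2 and 22.68 TPM after siPAI-1. RT112 cells held 15.75 and 13.47 TPM after Scr, against 11.59 and 12.09 TPM after siPAI-1. The siPAI-1 libraries were thus the higher ones in UM-UC-3 and the lower ones in RT112, with no overlap in either line. The log2 difference was 0.38 (SE 0.107, n = 2) in UM-UC-3 and -0.30 (SE 0.133, n = 2) in RT112, or 1.30-fold higher and 1.23-fold lower.

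The LRP6 level was lower in RT112 under both siRNAs. RT112 was 1.28-fold lower than UM-UC-3 between Scr libraries (log2 difference -0.36, 95% interval -0.64 to -0.08, adjusted p = 0.0398, limma) and 2.05-fold lower between siPAI-1 libraries (log2 difference -1.04, 95% interval -1.32 to -0.76, adjusted p = 0.000351). Only 8 of 16 alternatives kept the Scr call on LRP6, with adjusted p from 0.0249 to 0.158. The call was lost after rescaling by the median ratio (0.0582), without the variance trend (0.0649) and in the fit of the 4 Scr libraries alone (0.0676). It was also lost without UM-UC-3 Scr replicate 1 (0.137) or 2 (0.101), without RT112 Scr replicate 2 (0.158) and without RT112 siPAI-1 replicate 1 (0.0642) or 2 (0.0655). KREMEN1, a receptor of the Wnt inhibitor DKK1 that removes LRP6 from the surface, was at 2.51 and 4.12 TPM in UM-UC-3 Scr, against 25.03 and 25.92 TPM in RT112 Scr libraries (log2 difference 2.95, adjusted p = 7.84e-05). RNF43, a ubiquitin ligase acting on Wnt receptors, was listed at 0 in both UM-UC-3 Scr libraries and was at 0.11 and 0.35 TPM in RT112 Scr libraries, a low level in either line (adjusted p = 0.0158).

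VLDLR and LRP8, the receptors of reelin, also had line differences of opposite sign. VLDLR (9:2621787-2660056), which also binds uPA and PAI-1 complexes, was at 8.04 and 8.24 TPM in UM-UC-3 Scr, 7.57 and 7.78 TPM in UM-UC-3 siPAI-1, 3.85 and 3.33 TPM in RT112 Scr, and 3.98 and 3.3 TPM in RT112 siPAI-1 libraries. It was the lowest of the 9 genes in all libraries, and 2.24-fold lower in RT112 than in UM-UC-3 with Scr (log2 difference -1.16, 95% interval -1.56 to -0.77, adjusted p = 0.00108, limma) and 2.09-fold lower with siPAI-1 (adjusted p = 0.00163). The siPAI-1 differences were -0.08 (SE 0.14, n = 2) in UM-UC-3, where the groups were just apart, and 0.02 (SE 0.246, n = 2) in RT112.

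LRP8 (1:53242364-53328070), also called ApoER2, was at 38.47 and 44.52 TPM in UM-UC-3 Scr, 35.2 and 42.49 TPM in UM-UC-3 siPAI-1, 55.57 and 49.77 TPM in RT112 Scr, and 61.39 and 55.43 TPM in RT112 siPAI-1 libraries. Both RT112 groups lay above both UM-UC-3 groups, while the siPAI-1 and Scr libraries of a line overlapped. The line difference of 1.27-fold in the Scr libraries did not pass the threshold (log2 difference 0.35, 95% interval 0.05 to 0.64, adjusted p = 0.0556, limma), and that of 1.51-fold in the siPAI-1 libraries did (0.59, 95% interval 0.29 to 0.89, adjusted p = 0.00644). The Scr difference in LRP8 passed in 2 of 16 alternatives, after rescaling by the median ratio (0.0423) and among genes averaging 1 TPM or more (0.0332).

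LRP10 (14:22871740-22881713), a receptor that cycles between the trans-Golgi network and endosomes, was at 51.86 and 43.49 TPM in UM-UC-3 Scr, against 43.2 and 42.93 TPM in UM-UC-3 siPAI-1 libraries. RT112 held 69.79 and 72.57 TPM after Scr, against 74.55 and 71.59 TPM after siPAI-1. RT112 was above UM-UC-3 in every library, by 1.497-fold with Scr (log2 difference 0.58, 95% interval 0.37 to 0.80, adjusted p = 0.00153, limma) and 1.70-fold with siPAI-1 (adjusted p = 0.000422). The UM-UC-3 siPAI-1 libraries lay just below the Scr libraries (log2 difference -0.14, SE 0.101, n = 2), and the RT112 groups overlapped (0.04, SE 0.0624, n = 2).

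The sorting receptor SORL1 (11:121452314-121633763), which binds the amyloid precursor protein and also uPA and PAI-1, was at 17.23 and 17.7 TPM in UM-UC-3 Scr, against 18.19 and 20.63 TPM in UM-UC-3 siPAI-1 libraries. RT112 held 41.67 and 42.59 TPM after Scr, against 46.98 and 45.18 TPM after siPAI-1. As for LRP1, siPAI-1 libraries were above Scr libraries in both lines, but by less, at log2 differences of 0.15 (SE 0.106, n = 2) and 0.13 (SE 0.0682, n = 2). Between the lines the gap was wider, with RT112 2.40-fold above UM-UC-3 in Scr libraries (log2 difference 1.27, 95% interval 1.07 to 1.46, adjusted p = 3.07e-05, limma) and 2.37-fold in siPAI-1 libraries (adjusted p = 3.19e-05).

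SORT1 (1:109309575-109397918), sortilin, the receptor of neurotensin and progranulin, was at 20.04 and 12.57 TPM in UM-UC-3 Scr, 12.9 and 16.89 TPM in UM-UC-3 siPAI-1, 15.62 and 11.53 TPM in RT112 Scr, and 16.04 and 16.43 TPM in RT112 siPAI-1 libraries. Relative to its level, its Scr libraries were spread more widely than those of the other 8 genes, and the lines overlapped. The log2 difference of RT112 against UM-UC-3 was -0.24 (95% interval -0.86 to 0.38, adjusted p = 0.486, limma) with Scr and 0.14 (95% interval -0.48 to 0.75, adjusted p = 0.704) with siPAI-1. Without UM-UC-3 Scr replicate 1 the Scr difference turned to 0.094 (adjusted p = 0.835). These intervals leave room for a difference of either sign, so no line difference in SORT1 was detectable here.

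The chaperone LRPAP1 (4:3503612-3532422) had the highest level of the 9 genes in all libraries, at 64.72 and 71.2 TPM in UM-UC-3 Scr, 61.07 and 63.65 TPM in UM-UC-3 siPAI-1, 239 and 234.13 TPM in RT112 Scr, and 262.65 and 255.69 TPM in RT112 siPAI-1 libraries. RT112 was 3.48-fold higher with Scr (log2 difference 1.80, 95% interval 1.65 to 1.94, adjusted p = 2.77e-06, limma) and 4.15-fold higher with siPAI-1 (adjusted p = 1.75e-06), the largest line difference among the 9. Within the lines, siPAI-1 libraries were below Scr in UM-UC-3 (log2 difference -0.12, SE 0.0736, n = 2) and above Scr in RT112 (0.13, SE 0.0491, n = 2).

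Set against its receptors, LRPAP1 was also at a different ratio in the lines. The summed level of the 8 receptors was 193.92 and 182.94 TPM in UM-UC-3 Scr, 187.57 and 196.5 TPM in UM-UC-3 siPAI-1, 272.45 and 268.17 TPM in RT112 Scr, and 304.24 and 283.06 TPM in RT112 siPAI-1 libraries. LRPAP1 per TPM of receptor was 0.334 and 0.389 in UM-UC-3 Scr, 0.326 and 0.324 in UM-UC-3 siPAI-1, 0.877 and 0.873 in RT112 Scr, and 0.863 and 0.903 in RT112 siPAI-1 libraries. The chaperone thus took 25.02% and 28.02% of the summed level of the 9 genes in UM-UC-3 Scr cells, against 46.7% and 46.6% in RT112 Scr cells, with no overlap.

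Counted together, the siPAI-1 groups of UM-UC-3 were above Scr without overlap for LRP1, LRP6 and SORL1 and below for VLDLR, LRP10 and LRPAP1, and the other 3 genes overlapped. Over the 12803 genes averaging 1 TPM or more across the libraries, 17.2% lay above and 19.6% below in this way. In RT112, LRP1, LRPAP1, SORL1 and SORT1 were above and LRP6 below, against 19.7% and 17% of all such genes. LRP1 and SORL1 were above in both lines (3.33% of such genes), LRP6 was above in UM-UC-3 and below in RT112 (3.12%), and LRPAP1 was the reverse of LRP6 (3.98%). Nothing is read from these counts, since the contrast was used to choose the genes.

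The median siPAI-1 difference of the 9 genes was -0.08 on the log2 scale in UM-UC-3, with 3 higher and 6 lower, and 0.13 in RT112, with 8 higher and 1 lower. All genes tested had medians of -0.01 (9028 higher and 9458 lower) and 0.01 (9750 higher and 8654 lower). The tallies depend on single libraries, since the sign turned for LRP5, LRP8 and SORT1 in UM-UC-3 and for VLDLR and LRP5 in RT112 with 1 library left out. Across all genes, limma called 0 of 18528 in UM-UC-3 (0% of genes) and 0 of 18437 in RT112 (0% of genes). An unadjusted p below 0.05 was reached in UM-UC-3 by 482 genes on the higher side and 632 on the lower, and in RT112 by 617 and 446. These totals changed with the fit. In 1 fit over all 8 libraries they were 1255 in place of 1114 in UM-UC-3 and 1398 in place of 1063 in RT112. They changed as well when a library was left out, which leaves 1 library in a group, and the cause was not tested.

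**Figure D2:**
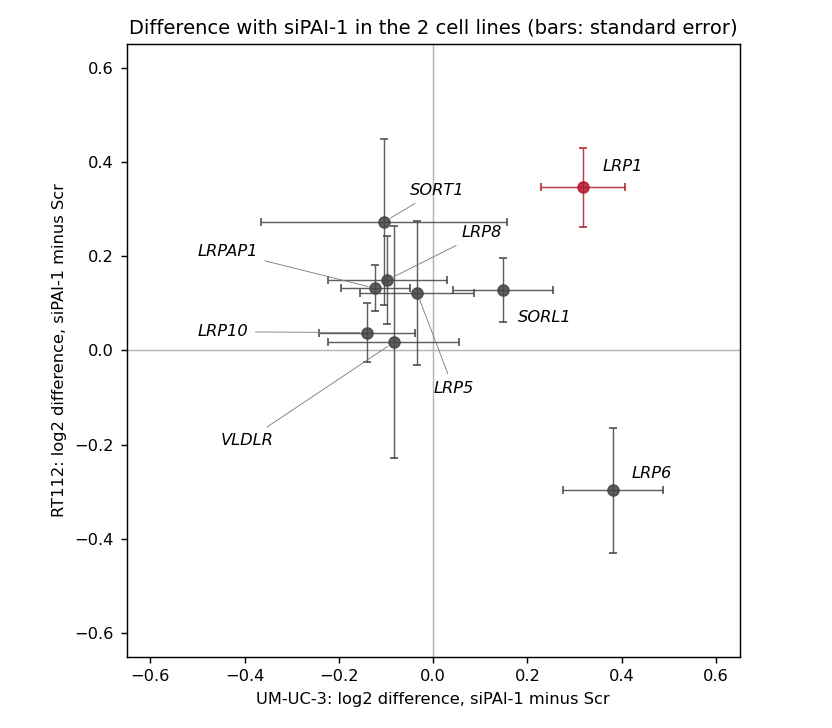
Difference of siPAI-1 minus Scr on the log2(TPM + 0.1) scale for each of the 9 genes, in UM-UC-3 (horizontal axis) and RT112 (vertical axis), with bars of 1 standard error in each direction. LRP1 (red) lay at 0.32 and 0.35, SORL1 at 0.15 and 0.13, and LRP6 at 0.38 and -0.30, apart from the other points.

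The order of the 9 levels differed between the lines. In UM-UC-3 Scr cells LRPAP1 was followed by LRP10, LRP8, LRP1, LRP6, SORL1, LRP5, SORT1 and VLDLR, and 5 of the 8 neighbouring pairs did not overlap between libraries. LRP10 and LRP8, SORL1 and LRP5, and LRP5 and SORT1 could not be ordered beyond their spread. In RT112 Scr cells the order was LRPAP1, LRP10, LRP8, LRP5, SORL1, LRP1, LRP6, SORT1 and VLDLR, with 7 of 8 neighbouring pairs apart and LRP6 and SORT1 overlapping. LRP1 thus stood above LRP5 and SORL1 in UM-UC-3 and below both in RT112, although its own level was higher in RT112. By mean level over the 8 libraries, the 9 genes lay between percentile 50.9 (VLDLR) and 94.9 (LRPAP1) of the genes above 0, with LRP1 at 73.8.

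In the test of the lines, 7 of the 9 genes passed an adjusted p of 0.05 between the Scr libraries, LRP1, LRP5, LRP10, LRPAP1 and SORL1 being higher in RT112 and VLDLR and LRP6 lower. Of all 20274 genes tested, 51.5% passed, 25% higher and 26.5% lower, and of those averaging 1 TPM or more 67.8% passed. The count for the 9 lies near that last share, whose genes were not matched to the levels of the 9. Between the siPAI-1 libraries 8 of 9 passed, with LRP8 added to those higher in RT112, against 52.1% of all genes (26.1% higher and 26% lower) and 68% of those averaging 1 TPM or more. The median difference of the 9 was 0.35 on the log2 scale with Scr and 0.59 with siPAI-1, and that of all genes tested was 0 in both. In their side-by-side levels 6 genes had both RT112 Scr libraries above both UM-UC-3 Scr libraries, 2 had them below and SORT1 overlapped, against 40.9% and 43.8% of the genes averaging 1 TPM or more. The siPAI-1 libraries split the same way, 6 above, 2 below and SORT1 overlapping, against 42.8% and 43.9%.

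**Figure D3:**
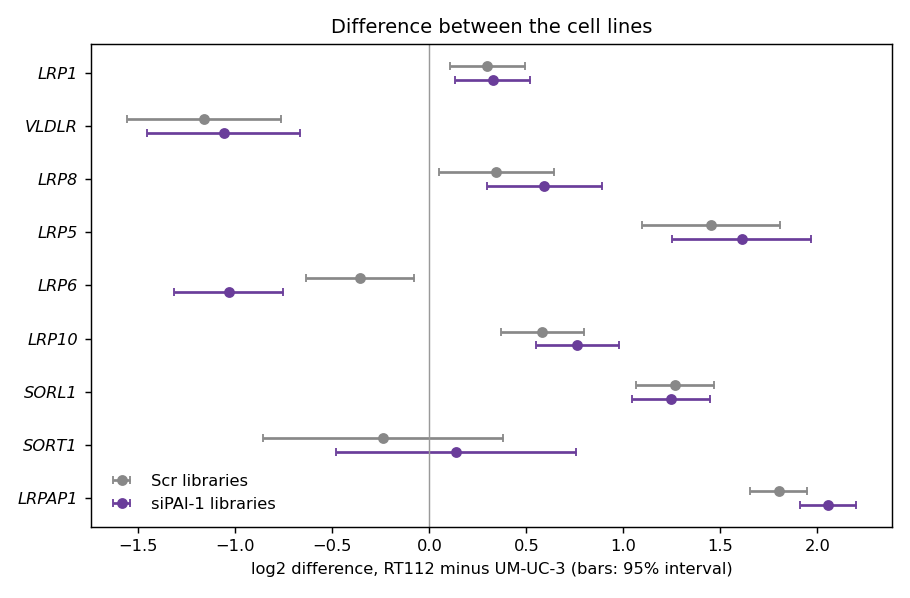
Difference of RT112 minus UM-UC-3 on the log2(TPM + 0.1) scale for each of the 9 genes in the Scr and in the siPAI-1 libraries, with the 95% interval of the limma fit as bars and a line at 0. LRPAP1, at 1.80 and 2.05, lay highest and VLDLR, at -1.16 and -1.06, lowest, and the intervals of SORT1 crossed 0.

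The genes that work with these receptors were taken in 4 lists of 70 genes in all, and 30 were higher and 22 lower in RT112 Scr than in UM-UC-3 Scr libraries. The shares over all genes tested were 25% higher and 26.5% lower, and 67.8% of the genes averaging 1 TPM or more passed in either direction. Among 11 other receptors of the LDL receptor and VPS10 domain kinds, 1 was higher and 3 lower, with a median of -0.30 on the log2 scale. The values of LRP2, SORCS1 and SORCS3 in it lie at the floor, with means of 0.0038, 0.025 and 0.0012 TPM over the 8 libraries. LRP3, a small endocytic receptor, was at 8.96 and 8.55 TPM in UM-UC-3, against 26.32 and 22.78 TPM in RT112 (log2 difference 1.47, adjusted p = 5.9e-05, limma). LRP12 was at 22.46 and 26.69 TPM in UM-UC-3, against 2.31 and 1.06 TPM in RT112 (-3.88, adjusted p = 0.000103), and LDLRAD3 was lower too (-0.72, adjusted p = 0.018). LRP1B, the close relative of LRP1, was at 0.09 and 0.05 TPM in UM-UC-3 and listed at 0 in RT112 (adjusted p = 0.0284), and so was close to 0 in both lines. LRP11 had the highest mean of this list and a log2 difference of 0.00 (adjusted p = 1).

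Of 24 ligands, 10 were higher in RT112 and 10 lower, against 25% and 26.5% of all genes. Of the genes averaging 1 TPM or more, 67.8% passed in either direction. The median absolute difference of the ligands was 1.38 on the log2 scale against 0.68 for all genes. THBS1, thrombospondin-1, which LRP1 takes up, was at 3.32 and 4.86 TPM in UM-UC-3, against 299.34 and 293.09 TPM in RT112 (log2 difference 6.17, adjusted p = 1.91e-05, limma). TFPI2, an inhibitor of serine proteases, was higher by 6.04 (adjusted p = 3.48e-05) and PDGFB, the B chain of platelet-derived growth factor, by 4.38 (adjusted p = 4.49e-05). CTGF, a matrix protein bound by LRP1 and LRP6, was at 122.16 and 101.46 TPM in UM-UC-3, against 1.97 and 1.54 TPM in RT112 (-5.92, adjusted p = 2.88e-05). The most abundant ligands, calreticulin (CALR) and prosaposin (PSAP), were lower in RT112 by smaller margins (-0.55 and -0.88, adjusted p = 4.73e-05 and 2.19e-05).

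The plasminogen activators, whose complexes with PAI-1 are cargo of LRP1, were named after their values were seen. PLAU, which encodes uPA, was at 557.93 and 531.97 TPM in UM-UC-3 Scr, against 69.65 and 73.43 TPM in RT112 Scr libraries (log2 difference -2.93, adjusted p = 1.69e-06, limma). PLAT, which encodes tPA, had the opposite sign (2.59, adjusted p = 2.47e-05), and the uPA receptor gene PLAUR was lower in RT112 (-1.03, adjusted p = 0.000152).

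Among 18 cytosolic adaptors and sorting genes, 6 were higher and 6 lower in RT112 Scr libraries, against 25% and 26.5% of all genes. Of the genes averaging 1 TPM or more, 67.8% passed in either direction, and nothing is read from the count. APBB1, which binds the tails of LRP1 and of the amyloid precursor protein, was at 15.29 and 13.99 TPM in UM-UC-3, against 0.08 and 0.14 TPM in RT112 (log2 difference -6.15, adjusted p = 7.5e-06, limma). The engulfment adaptor GULP1 was lower (-4.84, adjusted p = 2.24e-05), as was DAB2, an adaptor of LDL receptor family endocytosis (-4.63, adjusted p = 0.000373), at 10.66 and 9.45 TPM in UM-UC-3, against 0.63 and 0.13 TPM in RT112. GGA1, a Golgi adaptor for sorting receptors such as SORT1 and SORL1, was higher (0.95, adjusted p = 0.000233). Clathrin heavy chain (CLTC) did not pass (0.15, adjusted p = 0.0986), and PICALM, a clathrin assembly protein, was higher by 0.64 (adjusted p = 0.000186).

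Of 17 folding, shedding and turnover genes, 13 were higher and 3 lower in RT112 Scr libraries, against 25% and 26.5% of all genes, and the median was 0.69 against 0 for all genes. Of the 12803 genes averaging 1 TPM or more, 4239 passed as higher and 4441 as lower. The folding, shedding and turnover list was chosen with earlier results known, and its split was not tested. FURIN, the protease that cleaves the LRP1 precursor into its chains, was at 10.75 and 10.69 TPM in UM-UC-3, against 82.96 and 89.37 TPM in RT112 (2.99, adjusted p = 8.85e-06). The chaperones HSPA5 and PDIA4, the most abundant of the list, were higher by 0.85 and 0.60 (adjusted p = 1.04e-05 and 4.23e-05).

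With siPAI-1, none of the list genes was called by limma in either line (0 of 67 tested in UM-UC-3 and 0 of 68 in RT112). At an unadjusted p under 0.05, 4 list genes were higher in UM-UC-3, among them PICALM, HSPA5 and MESDC2, the chaperone of LRP5 and LRP6, and SNX17 and GGA2 were lower, against 2.6% higher and 3.41% lower of all genes. In RT112, PICALM and GGA2 were lower and none was higher, against 2.42% and 3.35% of all genes. The difference between the lines in the siPAI-1 effect was called for 0 of the 70 list genes and 0% of all genes, and 3 list genes on the higher and 3 on the lower side had an unadjusted p below 0.05, against 4% and 2.76% of all genes. THBS1, the ligand furthest apart between the lines, was at 120.77 and 239.35 TPM in the RT112 siPAI-1 libraries, both below the Scr values of that line, and did not pass (log2 difference -0.80, adjusted p = 0.838).

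**Figure D4:**
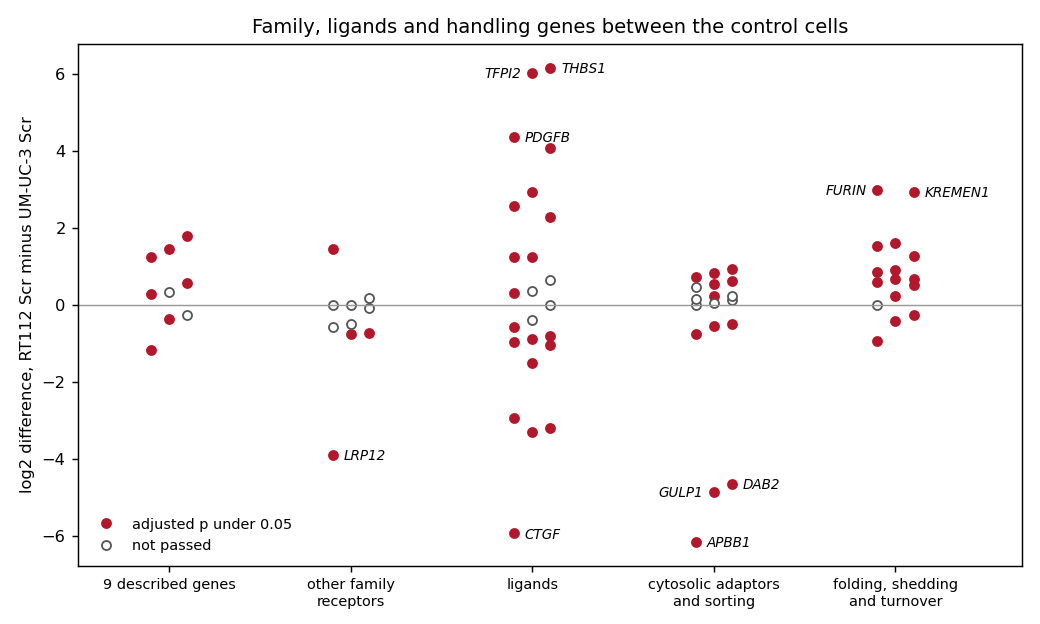
Difference of RT112 Scr minus UM-UC-3 Scr on the log2(TPM + 0.1) scale for the 9 described genes and for the genes of the 4 lists that are reported here, with 1 point per gene and filled points for an adjusted p under 0.05. The 9 genes lay between -1.16 and 1.80, and the ligands and adaptors reached from 6.17 (THBS1) to -6.15 (APBB1).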

How the data were processed

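Libraries were made by the authors with a stranded mRNA kit from 2 cell lines, and groups and replicate numbers were taken from the labels. Gene levels were deposited by the authors as TPM and as FPKM, both scaled to transcript length, and the deposited TPM has the same sum in each library within rounding. The submitters' processing notes name STAR 2.5.0, RSEM 1.2.25 and GRCh38, and the methods name cutadapt, featureCounts and DESeq2. No counts were used here, so DESeq2 was not run. TPM is relative, so a gene's value also moves with the rest of the library.

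Of 27567 entries, 92 spike-ins at 0 in all libraries were left out. Line differences were tested with limma 3.58.1 in R 4.3.3 (a two-sided eBayes test with trend) on log2(TPM + 0.1), over all 8 libraries with 1 mean per group. siPAI-1 was compared with Scr within each line. P-values were adjusted (Benjamini-Hochberg) over all genes above 0 in at least 1 library, and 0.05 was the threshold. Fold changes on this scale understate those of low genes. The script was tested on simulated data. Depth was estimated between 20 and 45 M reads from the FPKM steps of short genes. Upper estimates of the reads behind a member ranged from 611 (VLDLR) to 63732 (LRPAP1). In the library with the fewest reads of a gene, the counting error was at least 0.86% for LRPAP1 (13665 reads) and at least 4.05% for VLDLR (611 reads).

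The members and lists were chosen with earlier results of these data known. Named were the 9 genes, in each list the 4 largest line differences that passed and the 2 genes of highest mean, and the 5 genes most like LRP1 by each measure. Some genes that this rule names, and the check of the knock-down, are not reported here. Others are said to be named after their values were seen. Promoter sequences came from RefSeq. Alternatives covered the pseudocount (1 and 0.01), FPKM, rescaling, a filter at a mean of 1 TPM, the variance trend, the libraries fitted, a replicate block and leaving out each replicate. Same-numbered libraries did not deviate together, with correlations from -0.043 to 0.098 over 12803 genes.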

Additional observations from a re-analysis of the deposited data

Results flagged for a closer look

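The siPAI-1 difference had opposite signs in the lines, with no overlap of libraries in either, for LRP6 and LRPAP1. The difference of RT112 minus UM-UC-3 in the siPAI-1 effect was -0.68 on the log2 scale (SE 0.165) for LRP6 and 0.25 (SE 0.0855) for LRPAP1. It was not tested, because the siPAI-1 contrast was used to choose the genes. Such a pattern was present in 3.12% (higher in UM-UC-3, lower in RT112) and 3.98% (the reverse) of the 12803 genes averaging 1 TPM or more. In a test of this difference over all 20274 genes limma called 0 (0% of genes), while 811 genes on the higher and 559 on the lower side had an unadjusted p below 0.05. Without RT112 siPAI-1 replicate 2 that test called 123 genes, and the total at an unadjusted p below 0.05 went from 1370 to 2270.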

How the results depend on the processing

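VLDLR, LRP5, LRP10, LRPAP1 and SORL1 kept their Scr line call in 16 of 16 alternatives, LRP1 in 12 and LRP6 in 8. SORT1 ran from -0.57 to 0.094 with a replicate left out, the latter without UM-UC-3 Scr replicate 1. The calls of all genes numbered 9029 to 10479 (Scr) and 9010 to 10613 (siPAI-1), and 9144 to 10183 and 9010 to 10238 with a replicate left out. For siPAI-1 against Scr, 1 gene was called in UM-UC-3 with a filter at a mean of 1 TPM and 2 in RT112 in 1 fit over 8 libraries. The difference between lines gave 7 genes without the trend and 0 to 123 with a replicate left out (1 without UM-UC-3 Scr replicate 2, 44 without UM-UC-3 siPAI-1 replicate 1, 20 without RT112 siPAI-1 replicate 1 and 123 without RT112 siPAI-1 replicate 2). The cause was not tested. The replicate numbers did not pair the libraries, and a replicate block gave 10298 and 10455 line calls and 0 for each siPAI-1 contrast and for the difference. With 1 library left out, the siPAI-1 difference turned sign in UM-UC-3 for LRP5 (0.083 without Scr replicate 1), LRP8 (0.0076 without Scr replicate 2, 0.038 without siPAI-1 replicate 1) and SORT1 (0.23 without Scr replicate 1, 0.089 without siPAI-1 replicate 1), and in RT112 for VLDLR (-0.085 without Scr replicate 2, -0.11 without siPAI-1 replicate 1) and LRP5 (-0.073 without siPAI-1 replicate 1). LRP10 in UM-UC-3 ran from -0.27 to -0.014. The signs of LRP1, LRP6, LRPAP1 and SORL1 held in both lines in the 8 alternatives tried for each. Their groups did not overlap in either line, so leaving out 1 library could not turn the sign, and nothing is read from this. The depth of 29.3 to 34.15 M reads limits VLDLR most.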

Other observations

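Of the sorting genes, GGA2, a Golgi adaptor that binds the tails of sortilin-type receptors, is named here after its values were seen. Its siPAI-1 libraries lay below its Scr libraries in both lines. Over the 12803 genes averaging 1 TPM or more, 19.6% lay below in this way in UM-UC-3 and 17% in RT112. The share below in both lines is not given here, and nothing is read from the pattern. GGA2 was at 67.99 and 67.2 TPM in UM-UC-3 Scr and 52.86 and 55.66 TPM in siPAI-1 libraries. In RT112 it was at 44.77 and 51.31 TPM in Scr and 39.15 and 40.28 TPM in siPAI-1 libraries. Neither difference passed the adjusted threshold (limma, adjusted p = 0.791 and 0.838). PICALM had opposite signs, with 158.69 and 141.9 against 180.91 and 171.6 TPM in UM-UC-3 and 234.72 and 234.05 against 209.93 and 211.77 TPM in RT112 (adjusted p = 0.791 and 0.838), and the difference between the lines did not pass either (adjusted p = 0.62).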
